A study of Homo sapiens with 4 samples.

Results

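The nuclear genes of the mitochondrial respiratory chain were examined for macroH2A1 in IMR90 human lung fibroblasts. They were the 56 listed autosomal genes for subunits of complexes I to IV, each taken over its annotated hg19 span, of 18764 autosomal protein-coding genes that could be measured (19517 with chromosome X). Complex I had 34 of them, complex II 4, complex III 9 and complex IV 9, and all 56 passed the requirement that at least 50% of the span be assayed. The series held 2 macroH2A1 ChIP replicates, from IMR90 cells grown in medium with serum, with no treatment labelled, and crosslinked with formaldehyde, and 2 inputs of the same cells without antibody. The replicates are labelled as biological, and IMR90 is a single fibroblast strain, so the values describe that strain alone. A ChIP ratio does not measure RNA, so the cell type could not be checked against marker expression.

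Respiratory complexes I to IV sit in the inner mitochondrial membrane and pass electrons from NADH and succinate to oxygen, and complexes I, III and IV pump protons as they do so. Most of their subunits are encoded in the nucleus, and the genes are active in nearly every cell type. MacroH2A1 is a variant of histone H2A with a large macro domain. It is known for broad domains over silent chromatin, including the inactive X chromosome.

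The deposited values were log2 ratios of ChIP over input for long segments that tile each chromosome, 46952 of them in replicate 1 and 25584 in replicate 2, with median lengths of 27.4 and 53.7 kb. A gene's log2 ratio is the mean of the segment values over its assayed bases. A segment was called enriched at a log2 ratio above 0 with a deposited −log10 p of at least 2, and the covered share of a gene is the percent of its assayed bases enriched in both replicates. Read depth is unknown, and the error given is the SD between the 2 replicates, so no p-values are given. The ratio is relative within a library: over all measured autosomal genes its median was -0.96 in replicate 1 and -0.81 in replicate 2, and the genes below are read against those levels.

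MacroH2A1 was low over the respiratory chain genes as a group. The 56 genes had a median log2 ratio of -2.21 in replicate 1 and -1.91 in replicate 2, against -0.96 and -0.81 for all measured autosomal genes. All 56 were below 0 in both replicates, which held for 71.8% of all measured autosomal genes. A log2 ratio of -1 or lower in both replicates was found for 46 of the 56, against 44.0% of all genes. None of the 56 had at least 50% of its bases enriched in both replicates, against 17.4% of all genes. Only 3 of the 56, NDUFB9, UQCRB and UQCRC1, had any base enriched in both, against 28.9% of all genes. The mean covered share was 1.11% for the 56 genes and 18.0% for all genes.

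Ranked among all measured autosomal genes by the mean of both replicates, 50 of the 56 lay below the 50th percentile and 39 below the 25th, with a median at the 15.3rd percentile. The replicates differed by a median SD of 0.22 for the 56 genes and 0.16 for all genes. Between the replicates, Pearson's r was 0.51 and Spearman's rho 0.34 over the 56 genes, and both were 0.91 over all 18764 genes. These correlations are across genes, which are not independent, and the 56 cover a narrower range of values.

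**Figure D1:**
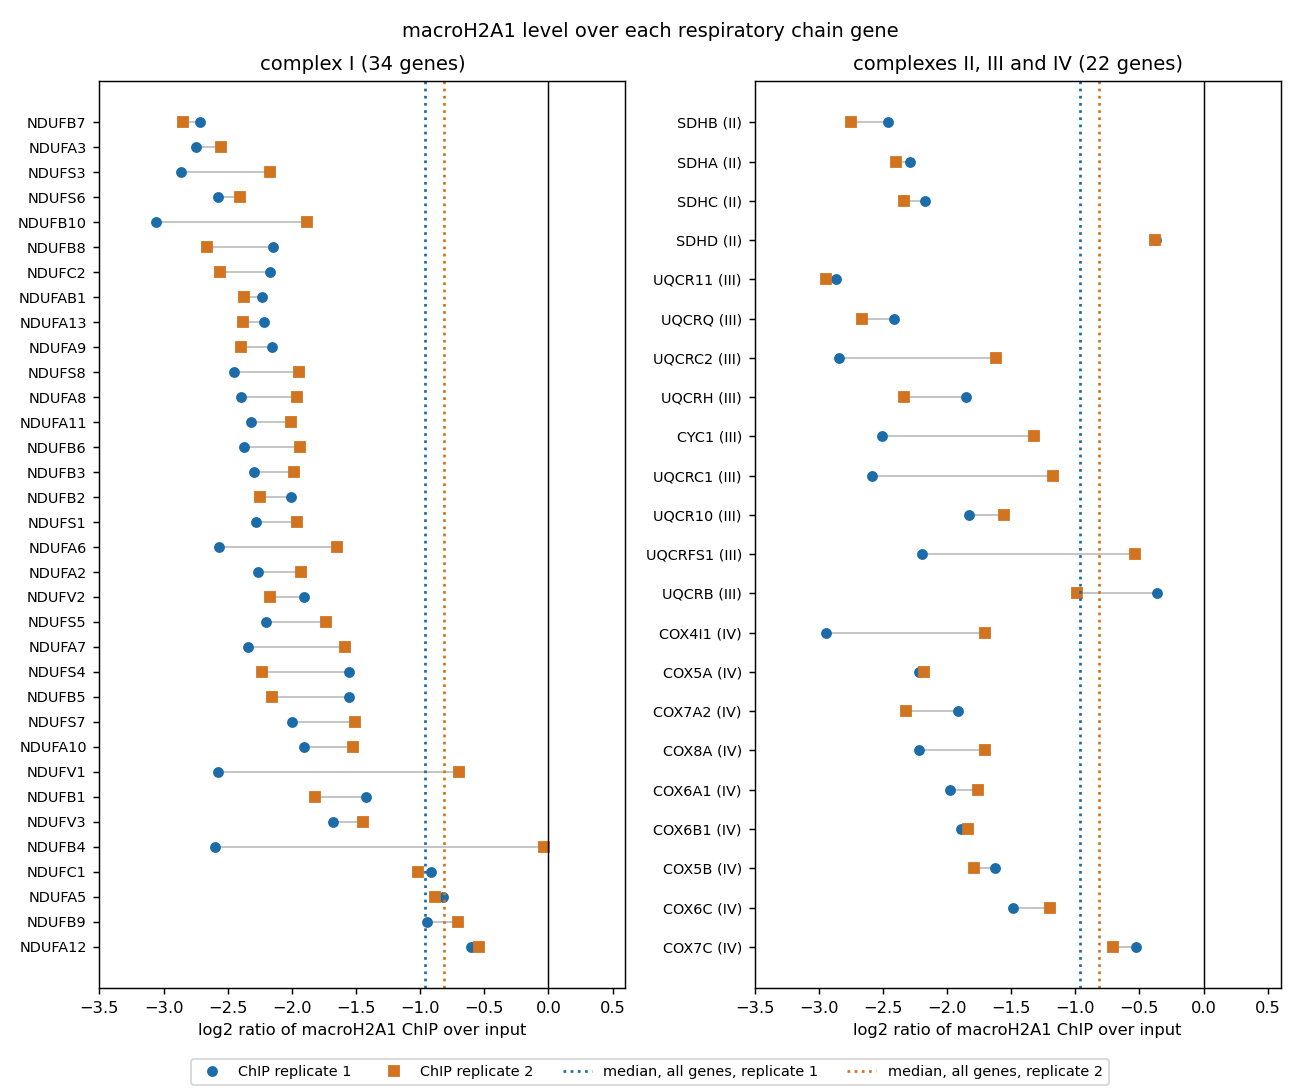
The log2 ratio of macroH2A1 ChIP over input (x axis) is plotted for each of the 56 genes (y axis), by complex and from low to high, with a circle for replicate 1 and a square for replicate 2. Dotted lines mark the medians of all measured autosomal genes, -0.96 and -0.81, and most genes lie to the left of both.

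The 6 listed core subunits of complex I, among which are the carriers of the flavin and the iron-sulfur clusters, had median log2 ratios of -2.36 in replicate 1 and -1.95 in replicate 2. NDUFS3 (chr11:47586888-47606114), a core subunit of the quinone-binding module, had the lowest mean of them, at -2.86 in replicate 1 and -2.17 in replicate 2. NDUFS8, which carries iron-sulfur clusters, was at -2.45 and -1.94. NDUFS7, another carrier of an iron-sulfur cluster, averaged -1.75 ± 0.35 (SD, n = 2). NDUFV1 (chr11:67373124-67380025), which binds NADH and the flavin, had the highest mean, with replicates that stood apart at -2.58 and -0.70. In replicate 1 it was below NDUFS8. All 6 were below 0, and 5 of the 6 were at -1 or lower in both replicates.

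The 12 supernumerary subunits of the NDUFA series, which surround the core without catalytic centres, had medians of -2.25 and -1.94. NDUFA3 (chr19:54606036-54612564) was at -2.75 in replicate 1 and -2.55 in replicate 2. NDUFAB1, which is also the mitochondrial acyl carrier protein, was at -2.23 and -2.37. The highest were NDUFA12, at -0.60 and -0.54, and NDUFA5, at -0.82 and -0.89. NDUFA12 was above the median of all genes in both replicates and NDUFA5 in replicate 1 alone. The other 10 were at -1 or lower in both replicates.

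The 10 NDUFB genes, whose products sit in the membrane arm, had medians of -2.22 and -1.96. NDUFB7 (chr19:14676890-14682878) was at -2.72 and -2.85, a mean of -2.78 ± 0.09 (SD, n = 2) and the lowest mean of complex I. NDUFB10 was at -3.06 in replicate 1 and -1.88 in replicate 2. NDUFB4 had the widest gap of any of the 56, at -2.60 in replicate 1 and -0.04 in replicate 2. NDUFB9 was at -0.94 and -0.70.

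The remaining 6 supernumerary genes of complex I had medians of -1.93 and -1.98. NDUFS6 was at -2.57 in replicate 1 and -2.41 in replicate 2, and NDUFC2 at -2.17 and -2.56. NDUFC1 was at -0.92 and -1.02, and NDUFV3 at -1.68 and -1.44. NDUFC1 was the highest of the 6 in both replicates.

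Complex II, succinate dehydrogenase, split into 3 low genes and 1 that lay above the medians of all genes over its annotated span. SDHB (chr1:17345159-17380527), the iron-sulfur subunit, was at -2.46 in replicate 1 and -2.75 in replicate 2. SDHA, the flavoprotein, was at -2.29 and -2.40, and SDHC, a membrane anchor, at -2.17 and -2.34. SDHD (chr11:111957548-111990739), the other membrane anchor, was at -0.37 and -0.38 over its annotated span, the highest of the 56 by the mean of both replicates. That span is 33.2 kb, whereas the canonical transcript spans 8.92 kb, over which SDHD was at -1.51 and -2.09. In replicate 2 alone, 22.2 kb of the longer span (66.8%) were enriched at 0.47, all beyond the canonical transcript, and in replicate 1 none were.

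Complex III, which takes electrons from ubiquinol to cytochrome c, had medians of -2.41 in replicate 1 and -1.56 in replicate 2. UQCR11 (chr19:1597168-1605472), a small supernumerary subunit, was at -2.87 and -2.94, a mean of -2.91 ± 0.05 (SD, n = 2), and was the lowest of the 56 (0.464th percentile of all genes). UQCRQ was at -2.41 and -2.66. UQCRFS1, the Rieske iron-sulfur protein, was at -2.20 in replicate 1 and -0.54 in replicate 2. UQCRB was at -0.36 and -0.98. The replicates differed by more than 1 for 4 of these 9 genes, so no order within complex III is read from them.

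Complex IV, cytochrome c oxidase, had medians of -1.92 and -1.76, and none of its 9 genes had a base enriched in both replicates. COX4I1 (chr16:85832239-85840674), a regulatory subunit, was at -2.94 in replicate 1 and -1.70 in replicate 2, and COX5A at -2.22 and -2.18. COX6C was at -1.49 and -1.20. COX7C (chr5:85913745-85916779) stood apart at -0.53 and -0.70. The segment that holds its start was 1666 kb long in replicate 1 and 1497 kb in replicate 2, so its value is that of a very long stretch. The medians of the 4 complexes differed by less than the gap between the replicates of complex III, and no order among complexes can be read from them.

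In 8 of the 56 genes the replicates differed by more than 1 on the log2 scale (14.3%, against 4.41% of all genes). Such gaps were more frequent in short genes. Under 10 kb they were found in 6 of the 21 members (28.6%), against 10.8% of all genes of that length. From 10 to 30 kb the shares were 5.00% and 5.58%, and at 30 kb or more 6.67% (1 gene) and 0.508%. The 8 genes were NDUFV1, NDUFB4, NDUFB10, UQCRC1, UQCRC2, UQCRFS1, CYC1 and COX4I1. In each of them replicate 1 was the lower and the segment at the start was the shorter in replicate 1. For NDUFB4 that segment was 8.62 kb in replicate 1 and 72.8 kb in replicate 2, and for UQCRFS1 14.9 and 394 kb. Among all 56, replicate 1 was the lower in 32, and among all 18764 measured autosomal genes in 10863. The median segment at the start of the 56 was 46.5 kb in replicate 1 and 70.3 kb in replicate 2. Shorter segments in replicate 1 were therefore not particular to these 8. The part of segment length in these gaps was not tested. A single segment covered the whole gene in both replicates for 40 of the 56, and for 8512 of all 18764 measured autosomal genes. The 56 were shorter, with a median span of 12.7 kb against 28.3 kb. No 2 of the 56 shared a segment at their start in either replicate, so each is a separate segment value.

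In several genes whose model reached far beyond the canonical transcript, as in SDHD, the level over the transcript was the lower. NDUFA12 spans 108 kb as annotated and 32.4 kb as the canonical transcript, and over the transcript it was at -1.94 and -1.40. NDUFB9 spans 41.5 and 10.9 kb, and over the transcript it was at -2.37 and -1.95. NDUFC1 spans 35.7 and 12.5 kb, and over the transcript it was at -2.07 and -2.23. NDUFS3, with spans of 19.2 and 5.49 kb, had the same level over both because 1 segment covers them. With canonical transcripts, 50 of the 56 genes were at -1 or lower in both replicates, and UQCRB alone kept bases enriched in both. The shares of all genes given above are over annotated spans, so these counts have no background beside them.

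The enriched bases lay at the edges of the 3 genes that had them. UQCRB had 4.41 kb enriched in both replicates (35.0%), from 8.19 to 12.6 kb downstream of its start. These bases belong to a region of 81.5 kb that also holds GDF6, a growth factor gene, with log2 ratios of 1.04 in replicate 1 and 0.94 in replicate 2. NDUFB9 had 7.17 kb enriched in both (17.3%), at least 34.4 kb downstream of its start and outside the canonical transcript. They are the end of a region of 399 kb over MTSS1, at 0.79 and 0.77. UQCRC1, a core protein of complex III, had 1.08 kb enriched in both (9.87%), lying 0.25 to 1.33 kb upstream of its canonical start. That region runs on for 9.28 kb in all (chr3:48647329-48656604), at 0.95 and 1.24, and overlaps no other protein-coding gene. The segment of UQCRC1 at its start was at -2.99 and -1.44.

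The ratio was lower over most of the genes than around them. In the flanks, from 50 to 200 kb on either side of the start, the 56 genes had medians of -0.57 and -0.47, against -0.55 and -0.49 for all genes. Gene minus flank had a median of -1.38 in replicate 1 and -1.18 in replicate 2 for the 56, against -0.36 and -0.29 for all genes. The gene itself was not taken out of the flanks, so a gene that runs beyond 50 kb from its start is partly its own flank. Median spans were 12.7 kb for the 56 and 28.3 kb for all genes. This overlap can therefore shrink the difference more among all genes, and its part was not tested. The gene was below its flanks in both replicates for 51 of the 56 (91.1%), and for 57.1% of all genes. The other 5 were NDUFA5, NDUFB4, UQCRC1, CYC1 and COX7C, which in replicate 2 were at or above their flanks.

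SDHB had the deepest drop, with gene minus flank at -2.95 in replicate 1 and -3.52 in replicate 2, and its flanks were above 0 in both, at 0.49 and 0.77. For UQCR11, gene minus flank was -2.75 and -2.96, with flanks at -0.12 and 0.02. For NDUFB8 it was -2.36 and -2.93, with flanks at 0.22 and 0.27. All 3 sat in surroundings near or above 0. NDUFA5 and COX7C, at the other end, differed from their flanks by less than 0.05 in both replicates. The segment at the start of NDUFA5 was 327 kb long in replicate 1 and 1231 kb in replicate 2, and that of COX7C was longer still. The nearest stretch of at least 1 kb enriched in both replicates lay within 50 kb of the start for 41 of the 56 (73.2%), against 63.6% of all genes.

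**Figure D2:**
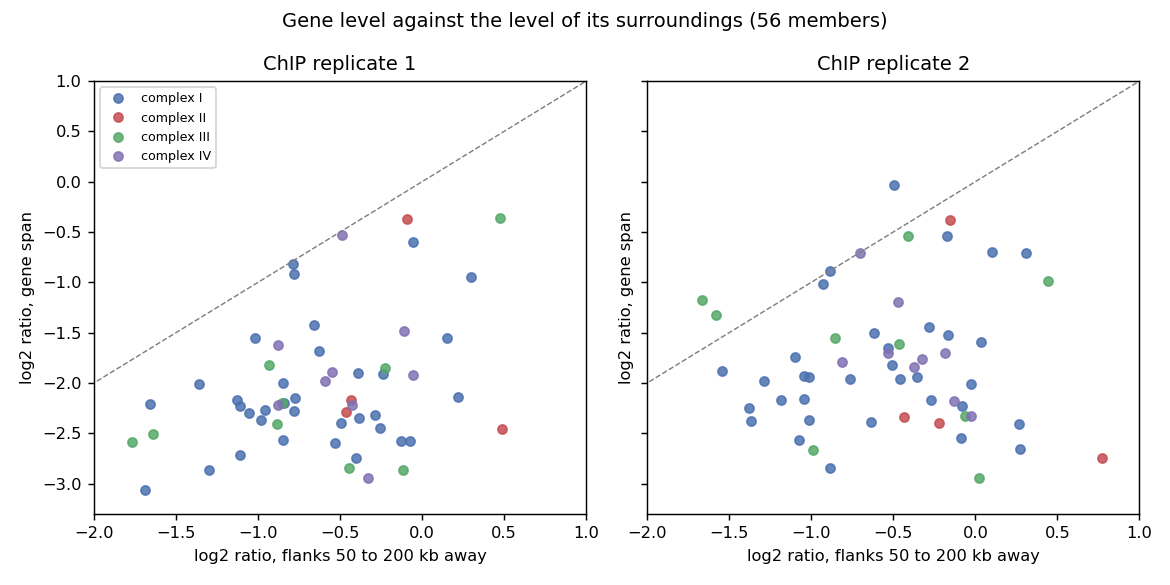
The log2 ratio over the gene span (y axis) is plotted against the mean log2 ratio 50 to 200 kb from the start (x axis) for the 56 genes, in a panel for each replicate and coloured by complex. Points below the dashed line of equality are genes lower than their flanks, which held in both replicates for 51 of the 56.

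Along the distance from the start, the median of the 56 genes was -1.01 and -1.40 at 10 kb upstream, -2.22 and -1.96 at the start and -2.20 and -1.94 at 10 kb downstream. All measured autosomal genes were at -0.03 and -0.04 at 10 kb upstream, -1.18 and -0.89 at the start and -0.99 and -0.87 at 10 kb downstream. From 50 to 200 kb upstream the median of the 56 varied between -0.58 and 0.13 in replicate 1 and between -0.54 and 0.30 in replicate 2. All genes stayed between -0.37 and -0.27 there in replicate 1 and between -0.34 and -0.25 in replicate 2. From 50 to 200 kb downstream the 56 varied between -1.19 and -0.25 and between -1.42 and 0.06, against -0.61 to -0.40 and -0.61 to -0.38 for all genes. Far from the start the 56 thus lay on either side of all genes. Downstream they were more often below, where the 1-kb steps had medians of -0.72 and -0.70, against -0.47 and -0.45 for all genes. Upstream the steps had the higher medians, at -0.27 and 0.05, against -0.34 and -0.32 for all genes. Segments at the start were of similar size, with medians of 46.5 and 70.3 kb for the 56 in replicates 1 and 2, and 50.9 and 88.3 kb for all genes.

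**Figure D3:**
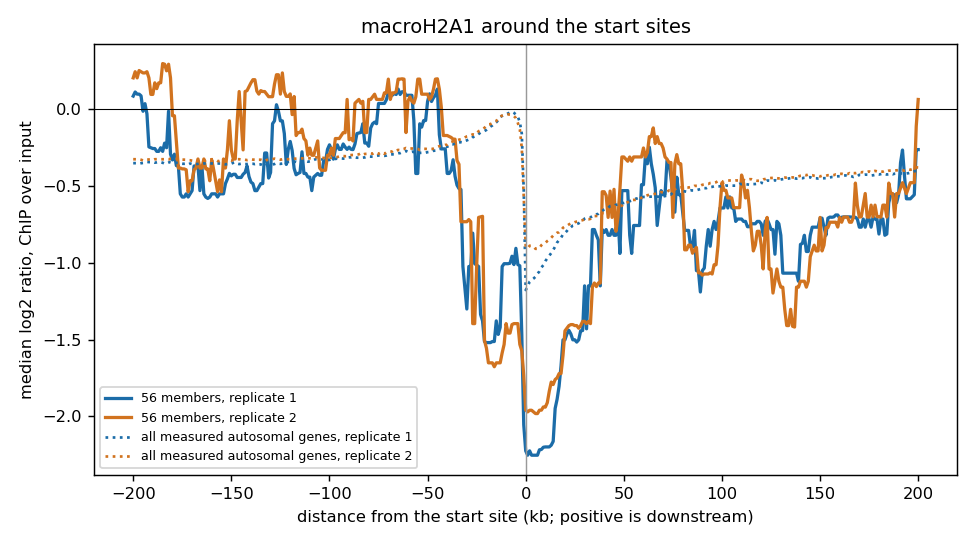
The median log2 ratio (y axis) is plotted at 1-kb steps of distance from the start site (x axis, positive in the direction of transcription), with solid lines for the 56 genes and dotted lines for all measured autosomal genes, by replicate. The 56 genes reach -2.22 and -1.96 at the start, and beyond 50 kb lie on either side of the lines of all genes.

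For 20 of the 55 genes with a start below 0 in both replicates, the stretch below 0 in both ended within 2 kb upstream of the start (36.4%, against 32.8% of the 13324 such starts among all genes). The 2 shares were close. Over the 10 kb upstream these 20 genes had medians of 0.13 and 0.20, and over the gene -2.29 and -1.95. As the 20 were picked by where the low stretch ends, a higher level upstream follows largely from the choice. In none of the 55 did the low stretch end within 2 kb downstream, against 4.40% among all genes. NDUFB10 was at 0.63 and 0.25 over the upstream 10 kb and at -3.06 and -1.88 over the gene. NDUFB7 was at 0.10 and 0.46 upstream and SDHB at 0.38 and 0.79, against the gene levels given above. NDUFS4, an accessory subunit, was at 0.27 and 0.39 upstream and at -1.55 and -2.23 over the gene. All of these are among the 10 of the 20 that were above 0 upstream in both replicates. CYC1 and COX6B1, also of the 20, were below 0 upstream, at -0.39 and -1.66 and at -0.82 and -0.04. NDUFA12 was the gene left out of the 55: in replicate 1 its start lay inside an enriched segment at 0.48.

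Genes with a coding partner that starts within 1 kb upstream on the other strand were 17 of the 56 (30.4%), against 9.72% of all measured autosomal genes. In 15 of these 17 the low level ran on for more than 2 kb upstream of the start, though in NDUFA7 it ended at 4 kb. It ended within 2 kb in the other 2, NDUFA8 and UQCRQ (11.8%). Among all genes it did so in 4.48% of the 1719 starts that have a partner and lie below 0 in both replicates. Running on was thus usual for starts with a partner and not particular to the 56. The 17 genes had medians of -2.21 and -1.95 over the upstream 10 kb. The 39 genes without such a partner had upstream medians of -0.48 and -0.70. Of the 38 of them with a start below 0 in both replicates, the low stretch ended within 2 kb upstream in 18 (47.4%), against 37.0% of such starts among all genes without a partner. Over the genes themselves the medians were -2.26 and -1.96 with a partner and -2.20 and -1.79 without. COX4I1 with EMC8 was at -2.94 and -1.70 upstream, and NDUFS3 with KBTBD4 at -2.86 and -2.17, each the same to 2 decimals as over the gene because 1 segment spans both.

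**Figure D4:**
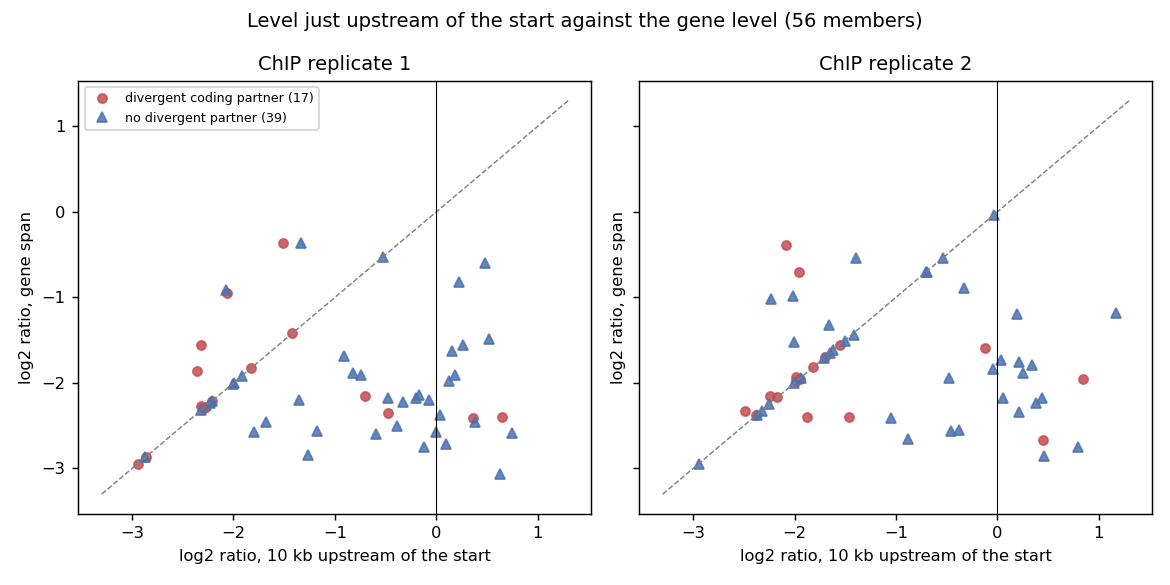
The log2 ratio over the gene span (y axis) is plotted against the log2 ratio over the 10 kb upstream of the start (x axis), in a panel for each replicate. Circles are the 17 genes with a divergent coding partner, most of them on or near the dashed line of equality at the left, and triangles are the 39 without, many of them below the line with an upstream level near or above 0.

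Promoters of respiratory chain genes are known for sites of NRF1 and of the ETS factor GABP. The letters GCATGCGC (NRF1) and CCGGAAG (GABP and other ETS factors) were searched on both strands from 250 bases before to 50 after the canonical start in GRCh37. A promoter counted once per motif. NRF1 matches on the 2 strands can overlap, and a GABP match can share only an end letter with an NRF1 match. The NRF1 letters were in 10 of the 56 promoters (17.9%) and in 4.24% of all measured autosomal promoters, and the GABP letters in 17 (30.4%) and in 14.3%. Both were in 4 (7.14%), against 0.959% of all promoters. Among all genes, the mean log2 ratio of both replicates had a median of -1.66 with the NRF1 letters and -0.85 without. Among the 56 it was -1.81 with and -2.11 without. For the GABP letters it was -1.80 with and -0.73 without among all genes, and -2.09 with and -2.10 without among the 56. A match of letters is a description of the window and shows no binding.

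The promoter runs of 5 genes are shown because they stand at the ends of the range or hold both motifs: UQCR11 was the lowest of the 56, COX7C was the highest with enough upstream sequence free of exons, and SDHB, COX6A1 and COX5B hold both motifs. SDHD, the highest of the 56 by the mean of both replicates, also holds both motifs. It is not shown because its exon-free run was 25 bases, under the 220 required. Each run lies upstream of the canonical start, is free of annotated exons, and is written 5′ to 3′ on the gene's strand in GRCh37, with matched letters in capitals. Positions give the first matched letter, counted backwards from the canonical start. UQCR11 lies at chr19:1605473-1605711 (minus strand) and has the GABP letters on each strand, at -117 and -97. SDHB lies at chr1:17380528-17380777 (minus), with NRF1 letters at -200 and GABP letters at -128. COX6A1, at -1.98 and -1.76, lies at chr12:120875666-120875892 (plus), with NRF1 letters at -218 and -174 and GABP letters at -16, past the end of the run shown. COX5B, at -1.62 and -1.79, lies at chr2:98262275-98262524 (plus), with NRF1 letters at -136 and GABP letters at -37, and a further GABP match at -5 that crosses the start. COX7C lies at chr5:85913508-85913744 (plus) and has neither.
UQCR11: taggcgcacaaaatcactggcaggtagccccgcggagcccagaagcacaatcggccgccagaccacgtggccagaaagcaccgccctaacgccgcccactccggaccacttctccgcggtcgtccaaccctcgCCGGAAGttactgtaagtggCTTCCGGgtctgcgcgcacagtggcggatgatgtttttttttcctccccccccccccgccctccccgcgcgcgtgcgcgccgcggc
SDHB: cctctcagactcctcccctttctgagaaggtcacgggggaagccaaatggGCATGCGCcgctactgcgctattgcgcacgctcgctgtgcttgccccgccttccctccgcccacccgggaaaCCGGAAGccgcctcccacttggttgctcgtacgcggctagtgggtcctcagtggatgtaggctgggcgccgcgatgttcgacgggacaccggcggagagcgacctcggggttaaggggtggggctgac
COX6A1: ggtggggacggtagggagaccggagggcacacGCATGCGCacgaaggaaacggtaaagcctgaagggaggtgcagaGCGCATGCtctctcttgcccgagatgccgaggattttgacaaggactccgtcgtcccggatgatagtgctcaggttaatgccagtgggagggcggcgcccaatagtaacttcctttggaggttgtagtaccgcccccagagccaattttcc
COX5B: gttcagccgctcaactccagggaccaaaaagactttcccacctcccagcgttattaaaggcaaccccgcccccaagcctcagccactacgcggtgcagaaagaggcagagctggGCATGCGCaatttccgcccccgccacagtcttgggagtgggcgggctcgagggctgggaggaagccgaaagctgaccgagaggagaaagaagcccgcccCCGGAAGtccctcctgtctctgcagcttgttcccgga
COX7C: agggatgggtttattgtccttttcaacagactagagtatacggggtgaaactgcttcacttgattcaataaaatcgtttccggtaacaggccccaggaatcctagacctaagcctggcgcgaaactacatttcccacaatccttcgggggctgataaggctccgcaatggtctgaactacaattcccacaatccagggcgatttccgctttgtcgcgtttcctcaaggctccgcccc

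The 56 genes also differ from all genes in features that the choice of genes did not use. Their median span was 12.7 kb, against 28.3 kb for all measured autosomal genes, and their median GC content 46.4% against 45.2%. A median of 13.5 coding genes started within 500 kb, against 12. Within each class of length the 56 had the lower medians. Under 10 kb the 21 genes had medians of -2.41 and -1.76, against -0.73 and -0.66 for all such genes. From 10 to 30 kb the 20 genes were at -2.22 and -1.99, against -1.29 and -1.05. At 30 kb or more the 15 genes were at -1.91 and -1.96, against -0.91 and -0.88. With 25 or more coding neighbours the 15 genes were at -2.35 and -1.88, against -1.48 and -1.24, and with under 10 the 21 genes were at -1.90 and -1.70, against -0.75 and -0.71. On chromosome 19, which holds 9 of the 56, they were at -2.32 and -2.01, against -1.43 and -1.25 for all its genes. Off chromosome 19 the 47 others were at -2.17 and -1.88, against -0.93 and -0.79. The part of these features in the result was not tested.

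Isoform genes of cytochrome c oxidase with restricted expression were set beside their widely expressed counterparts. COX4I2 (chr20:30225715-30232809), the isoform known from lung and from low oxygen, was at 0.94 in replicate 1 and 0.86 in replicate 2 and covered to 100%, whereas COX4I1 was at -2.94 and -1.70. COX6A2, the heart and muscle isoform, was at -0.12 and 0.09, against -1.98 and -1.76 for COX6A1. COX6B2, the testis isoform, was at -0.02 and -0.07, against -1.89 and -1.84 for COX6B1. COX8C was at -0.65 and -0.73, against -2.22 and -1.70 for COX8A. COX7A1, the heart and muscle isoform of COX7A, was also low, at -2.49 and -1.62, against -1.92 and -2.32 for COX7A2, below it in replicate 1 and above it in replicate 2. In 4 of these 5 pairs the restricted isoform was the higher in both replicates. Their counterparts were all low, so most genes set beside them would be the higher. The 7 listed restricted isoforms had medians of -0.12 and -0.23. Of the 7, 1 was covered to at least 50% (14.3%, against 17.4% of all measured autosomal genes). Below 0 in both replicates were 5 of the 7 (71.4%, against 71.8%), so these counts do not set restricted isoforms apart. The segment at the start of COX6A2 was 230 kb long in replicate 1 and 232 kb in replicate 2. For COX8C it was 574 and 179 kb, so the values of both genes are those of long stretches. For COX7A1 it was 27.1 kb in replicate 1 and 265 kb in replicate 2, so its value in replicate 2 is that of a long stretch too. COX8C was also near the medians of all measured autosomal genes, -0.96 and -0.81. COX6B2 was covered to 16.3%, and COX6A2 and COX8C had no base enriched in both replicates. Of the other listed isoforms, COX7B2 was at -0.01 and -0.23 and NDUFA4L2, a gene induced by low oxygen, at -1.70 and -1.79.

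**Figure D5:**
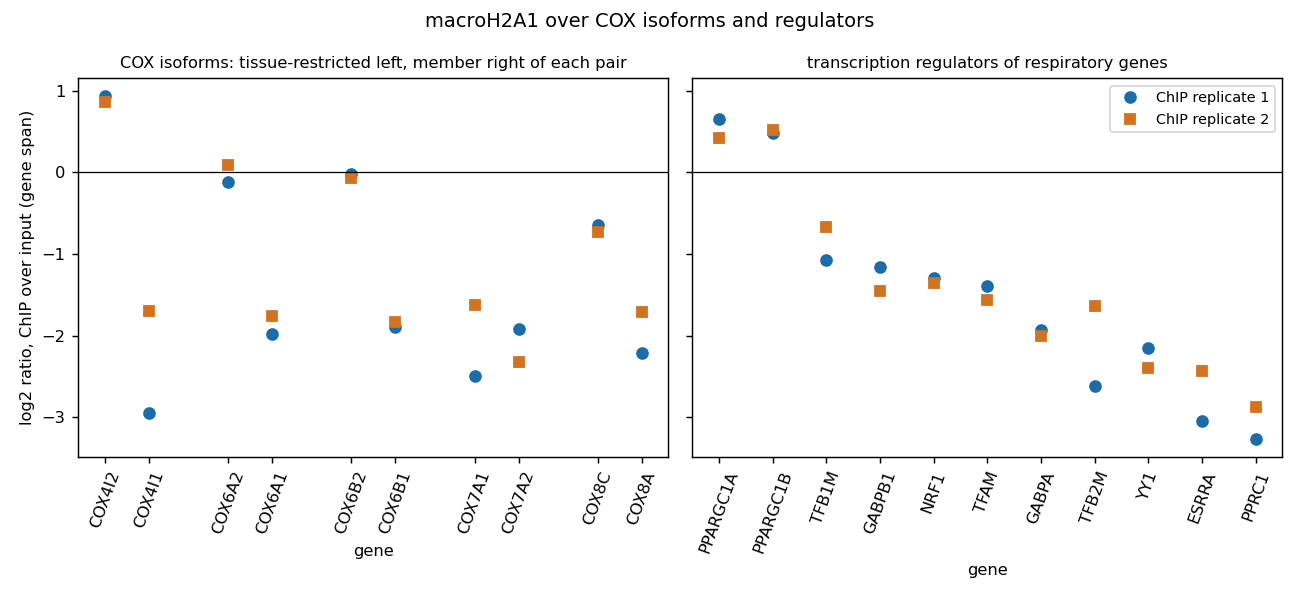
The log2 ratio over the gene span (y axis) is plotted for 5 pairs of COX isoforms (left panel, the tissue-restricted isoform left in each pair) and for 11 transcription regulators (right panel), with a circle for replicate 1 and a square for replicate 2. COX4I2, PPARGC1A and PPARGC1B are the genes above 0 in both replicates.

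The 3 subunit genes on chromosome X lie outside the autosomal set. NDUFB11 was at 0.07 in replicate 1 and 1.04 in replicate 2, COX7B at 0.49 and 0.08, and NDUFA1 at -0.30 and -0.37. All measured genes of chromosome X had medians of 0.50 and 0.51. NDUFB11 was enriched in replicate 2 alone and COX7B in replicate 1 alone. None of the 3 had a base enriched in both replicates, against 70.9% of the 753 measured genes of chromosome X.

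Other genes of the pathway were low as well. The 17 ATP synthase genes had medians of -2.05 and -1.99, and 13 were at -1 or lower in both replicates. ATP5MF was at -2.86 and -2.49 and ATP5PB at -2.28 and -2.93. ATP5ME was at -1.14 and -0.27, and ATP5MC2, a gene of the membrane rotor, at -0.50 and -0.31 with 57.2% of its span covered. The covered bases of ATP5MC2 lay outside its canonical transcript (10.9 of 44.7 kb), which was at -2.20 in replicate 1 and below the whole span in replicate 2 as well. The 41 assembly factors had medians of -1.74 and -1.57, with 32 at -1 or lower and none covered to 50%. SCO2, a copper chaperone of complex IV, was at -2.91 and -2.28 and NDUFAF3, a complex I factor, at -2.75 and -2.31. COX19 was at -0.44 and -0.22, and its replicates stood apart over the canonical transcript, at -2.76 and -0.15. COA7 stood on either side of 0, at -1.57 in replicate 1 and 0.71 in replicate 2. Cytochrome c and the coenzyme Q pathway (12 genes) had medians of -1.61 and -1.63, with 9 at -1 or lower. COQ9 was at -2.54 and -2.41 and COQ8B at -2.27 and -2.16, and CYCS, cytochrome c itself, at -0.50 and -0.42. COQ2 was at -0.26 and 0.41.

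The 11 transcription regulators of respiratory genes held both enriched and very low genes, with medians of -1.39 and -1.56. At least 50% of bases were enriched in both replicates for 2 of the 11 (18.2%), against 17.4% of all measured autosomal genes. These shares were close, so the enriched regulators do not set the list apart from all genes. PPARGC1A (chr4:23756664-23905712), the inducible coactivator of mitochondrial biogenesis, was at 0.65 in replicate 1 and 0.42 in replicate 2 and covered to 100%. Its relative PPARGC1B (chr5:149109861-149234585) was at 0.48 and 0.52 and covered to 73.2%. PPRC1, the third coactivator of the family, was the lowest of the list at -3.27 and -2.87, and ESRRA, a nuclear receptor, was at -3.04 and -2.43. The other 7 were below 0 in both replicates. NRF1 was at -1.29 and -1.35, and TFAM, which packages mitochondrial DNA, at -1.39 and -1.56.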

How the data were processed

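Sheared IMR90 chromatin was immunoprecipitated for macroH2A1, per the labels' protocols, in 2 biological replicates. CASAVA 1.7 and build hg19 are named in the submitters' processing notes; no aligner, segmentation program or scaling is given in the sources used here, and depth is unknown. The authors deposited, for each ChIP replicate, segments that each carry the log2 of ChIP over input and a −log10 p-value; both units were read from the values (2 raised to the ratio averaged 1.01 and 0.995). The deposited −log10 p was 0 for 68.5% and 68.6% of segments below 0, so it was used only to call enrichment, and no low value carries a test.

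Genes were GENCODE release 44 models mapped to GRCh37, the files' build. Values were base-weighted means over blocks, made with Python 3.11.15, numpy 2.4.6 and pandas 2.3.3, and were checked base by base on simulated segments. Start sites were those of Ensembl canonical transcripts. The genes and lists were chosen with earlier results of these data known. Genes were named by rule: the 2 highest and 2 lowest of each list, genes with bases enriched in both replicates, genes whose replicates differ in sign among the 56 (none), and all X-linked and restricted isoforms. Genes named besides these were chosen after their values were seen. The inputs entered only through the authors' ratio.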

Additional observations from a re-analysis of the deposited data

How the results depend on the processing

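All 56 genes were below 0 in both replicates over the 5-kb start window, the span with 10 kb added on each side, whole segments and canonical transcripts (an alternative chosen after seeing the data), and in each replicate alone, and 55 were below -0.25. The count at -1 or lower was 38 to 50 over these windows and 41 at -1.5. The shares of all genes were taken over annotated spans at the main thresholds, so the counts at other settings have no background beside them. The count with at least 50% of bases enriched was 0 except with any enriched base in both (3), no limit on p (2), and over single replicates, 0 to 2; the 2 in replicate 2 alone were NDUFB9 and SDHD. The mean covered share was 0.625% at a −log10 p of at least 10 and also over canonical transcripts, 3.25% with no limit on p, 3.23% in the start window and 8.24% with 10 kb added, and 1.23% to 3.02% in single replicates. The median log2 ratio was -1.83 in the start window and -1.55 with 10 kb added, and -2.21 to -1.91 in single replicates; that of complex II was -1.66 in the start window. With chromosome X the background called enriched was 19.2% in place of 17.4%. Values of short genes are those of longer segments, so dips or peaks inside a segment are not seen. No paired analysis was possible because the inputs were used only within the deposited ratio and no second group of samples had values.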

Other observations

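Lists of related metabolism, chosen after the respiratory chain values were seen, were also low against all measured autosomal genes (-0.96 and -0.81). The 78 autosomal mitochondrial ribosomal protein genes had median log2 ratios of -2.02 in replicate 1 and -1.79 in replicate 2, with 60 at -1 or lower in both and none covered to 50%. MRPL12 was at -2.95 on average. MRPL11 and MRPS22 averaged 0.37 and 0.09 over long annotated spans. Over its canonical transcript MRPL11 was at -2.36 and -1.84 (3.77 of 31.7 kb), and MRPS22 at -2.58 and -2.71 (13.1 of 355 kb). The 12 citric acid cycle enzymes had medians of -1.68 and -1.71, and 11 were at -1 or lower in both. IDH3B was at -2.56 on average. SUCLA2 averaged -0.75, and over its canonical transcript (58.6 of 292 kb) it was at -1.85 and -2.09.

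The 16 enzyme genes of glycolysis, the cytosolic route of glucose breakdown, had medians of -2.27 and -1.84, with 13 at -1 or lower in both. PFKL was at -2.84 and ENO1 at -2.79 on average. HK2, the inducible hexokinase, stood on either side of 0, at -0.55 in replicate 1 and 0.39 in replicate 2. LDHB, a lactate dehydrogenase subunit, averaged -0.13 with 75.6% of its span covered, but its canonical transcript (22.5 of 123 kb) was at -1.81 and -2.15 with no base covered.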
